A study of Homo sapiens with 18 samples.

Results

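WNK2, a chloride-sensitive protein kinase, and CPNE5, a calcium-dependent membrane-binding copine, were at lower messenger RNA levels in lymphoma cells from tazemetostat-treated mice than in those from vehicle-treated mice. WNK2 averaged 49.4 ± 1.91 CPM in tazemetostat mice and 81.2 ± 13.5 CPM in vehicle mice, and CPNE5 averaged 5.53 ± 1.03 CPM in tazemetostat mice and 9.95 ± 1.20 CPM in vehicle mice (SD, n = 3 mice each). CPM values are counts divided by the size of the library, here adjusted with TMM factors for differences in library composition. Both genes were chosen by this contrast, so their difference is a description and carries no test here. WNK1, CPNE1 and CPNE3, close relatives, were added for comparison, which makes 5 genes of the 58735 in the table. All 5 had enough counts to be tested.

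The tumours were grown under the skin of NSG mice from OCI-Ly18, a human cell line of diffuse large B-cell lymphoma tagged with green fluorescent protein. NSG is a mouse strain without T, B or NK cells of its own. Tazemetostat mice (M_767, M_768 and M_774) were gavaged with tazemetostat (EPZ6438), which blocks the histone methyltransferase EZH2, at 150 mg/kg a day for 14 days from day 3 after implantation. Vehicle mice (M_766, M_769 and M_770) received vehicle on the same schedule. Both groups were next infused with CART19 cells, engineered T cells, and the fluorescent tumour cells were sorted 11 days later, so no group lacked CART19 cells. The age and sex of the mice and any drug given after the infusion are not stated, and 1 cell line stands for the disease. Each mouse gave 3 libraries, A, B and C, which were summed per mouse. What the letters stand for is not stated, and n = 3 mice per group.

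WNK kinases take their name from "with no lysine", because the catalytic lysine sits at an unusual place in the kinase fold. They sense chloride and cell volume and phosphorylate the kinases SPAK (STK39) and OSR1 (OXSR1), which in turn set the activity of the cation-chloride cotransporters of the SLC12 family. WNK1 is expressed in most tissues, while WNK2 is best known from brain and heart and as a gene silenced by promoter methylation in some gliomas. Copines are cytosolic proteins with tandem C2 domains and a von Willebrand A domain, and they move to membranes when calcium rises. CPNE1 and CPNE3 are widely expressed, and CPNE5 has a more restricted expression.

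The start regions of WNK2 and CPNE5 are shown because these are the genes whose levels were lower, and because they differ in how many start sites RefSeq lists. Each line holds the 250 bases before a start site in RefSeq (GRCh38.p14), 5′ to 3′ on the gene's strand, with every CG dinucleotide in capitals. WNK2 has 1 listed start (window chr9:93183889-93184138, plus strand) and CPNE5 has 3, of which the first is shown (window chr6:36839445-36839694, minus strand).
WNK2: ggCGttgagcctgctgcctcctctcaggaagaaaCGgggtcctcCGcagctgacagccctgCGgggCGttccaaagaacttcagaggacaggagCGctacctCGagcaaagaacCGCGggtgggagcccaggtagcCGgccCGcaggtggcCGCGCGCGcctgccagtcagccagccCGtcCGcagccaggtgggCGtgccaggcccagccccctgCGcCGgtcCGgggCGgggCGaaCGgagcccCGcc
CPNE5: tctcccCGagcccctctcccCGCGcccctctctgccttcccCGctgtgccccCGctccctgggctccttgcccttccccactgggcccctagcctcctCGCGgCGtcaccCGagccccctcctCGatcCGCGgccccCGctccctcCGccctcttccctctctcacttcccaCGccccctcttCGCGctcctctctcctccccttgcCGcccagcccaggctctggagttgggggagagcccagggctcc

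The letters CG, which read the same on both strands, occurred 25 times in the WNK2 window, and 21.6% of the 35116 RefSeq promoter windows held at least as many. The first CPNE5 window held 18, a number that 36.8% of windows reached. Both stood above the median window, which held 11. The first CPNE5 start lies 558 bases inside the gene model of the count table, while the WNK2 start lies before its model. The other CPNE5 starts lie 74207 and 82602 bases into the gene model and their windows held 7 and 2. The WNK1 window held 19 and the CPNE1 window 21. Counts per gene do not tell which CPNE5 start the lymphoma cells used, and DNA methylation was not measured.

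The genes lie on 5 chromosomes of hg38. WNK2 (ENSG00000165238) spans chromosome 9, 93184916 to 93320572, on the plus strand, and WNK1 (ENSG00000060237) spans chromosome 12, 752593 to 911452, on the plus strand. CPNE5 (ENSG00000124772) spans chromosome 6, 36740775 to 36840002, on the minus strand. CPNE1 (ENSG00000214078) lies on chromosome 20, 35626031 to 35664956, on the minus strand, and CPNE3 (ENSG00000085719) on chromosome 8, 86514427 to 86561498, on the plus strand.

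WNK2 was at 51.6, 48.9 and 47.9 CPM in tazemetostat mice M_767, M_768 and M_774, against 67.4, 81.9 and 94.3 CPM in vehicle mice M_766, M_769 and M_770. The highest tazemetostat mouse was below the lowest vehicle mouse. The fitted log2 fold change was -0.72 (SE 0.12), tazemetostat over vehicle, with the SE taken as the absolute fold change over the root of the F statistic. The mouse sums held 2825 to 3662 WNK2 counts in tazemetostat mice and 4374 to 5211 in vehicle mice. Counting error was small beside the spread between vehicle mice, but less so beside the spread between tazemetostat mice. The coefficient of variation was 3.86% in tazemetostat mice and 16.6% in vehicle mice. Counting alone would give 1.77% in tazemetostat mice and 1.45% in vehicle mice. The vehicle mice thus differed more among themselves than the tazemetostat mice did. In bulk RNA, fewer cells that express a gene and less RNA per cell cannot be told apart.

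CPNE5 was at 4.86, 5.02 and 6.71 CPM in tazemetostat mice M_767, M_768 and M_774, against 9.37, 9.15 and 11.3 CPM in vehicle mice M_766, M_769 and M_770. Again the groups did not overlap, with mouse M_774 the highest of the tazemetostat mice and mouse M_770 the highest of the vehicle mice. The log2 fold change was -0.85 (SE 0.16). CPNE5 had the fewest counts of the 5 genes, with 329 to 396 counts per mouse in tazemetostat mice and 535 to 626 in vehicle mice. Its coefficient of variation was 18.6% in tazemetostat mice and 12.1% in vehicle mice, where counting alone would give 5.31% in tazemetostat mice and 4.13% in vehicle mice.

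**Figure D1:**
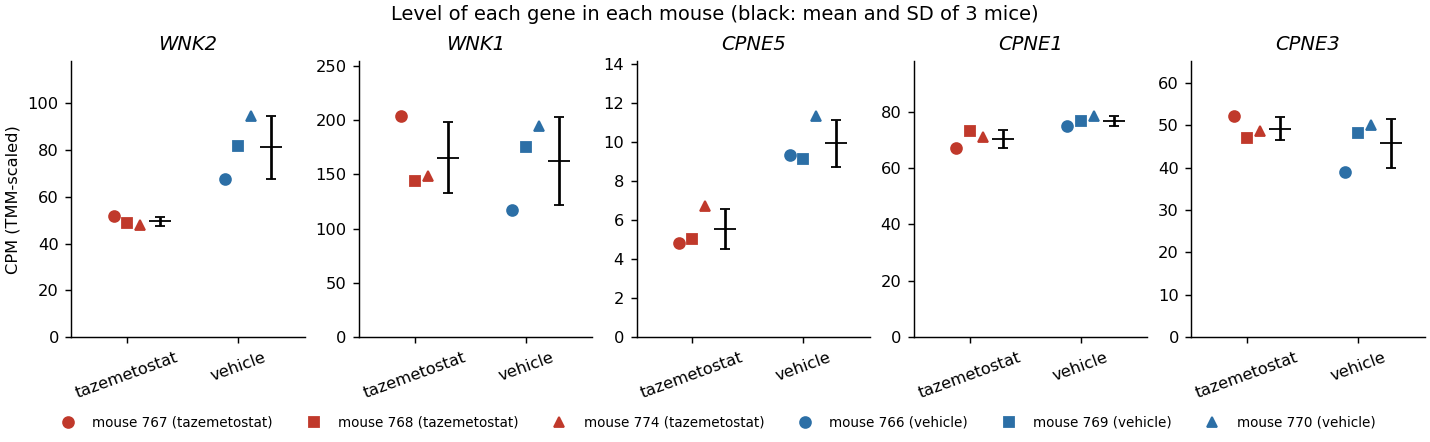
CPM of the 5 genes in each mouse (points; 3 tazemetostat mice left, 3 vehicle mice right), with the mean and SD of each group in black. WNK2, CPNE5 and CPNE1 do not overlap between the groups, while WNK1 and CPNE3 do. Mouse M_766 is the lowest vehicle mouse for WNK2, WNK1, CPNE1 and CPNE3.

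The log2 fold changes of the close relatives lay closer to 0. WNK1 was at 203, 144 and 149 CPM in tazemetostat mice M_767, M_768 and M_774, against 117, 175 and 195 CPM in vehicle mice M_766, M_769 and M_770, so the groups overlapped widely. Its log2 fold change was 0.03 (SE 0.19, edgeR adjusted p = 0.99). The sign of this value changed with the mice used, from -0.15 without vehicle mouse M_766 and -0.14 without tazemetostat mouse M_767 to 0.19 without vehicle mouse M_770. CPNE3, a copine found in the cytosol and at membranes, was at 52.1, 47.1 and 48.6 CPM in tazemetostat mice M_767, M_768 and M_774, against 39.1, 48.1 and 50.02 CPM in vehicle mice M_766, M_769 and M_770, with a log2 fold change of 0.11 (SE 0.11, edgeR adjusted p = 0.92). The CPNE3 groups overlapped, with mouse M_766 alone below 40 CPM.

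CPNE1 was at 67.0, 73.3 and 71.1 CPM in tazemetostat mice M_767, M_768 and M_774, against 75.0, 76.8 and 78.3 CPM in vehicle mice M_766, M_769 and M_770. The groups did not overlap, yet the difference was small, with a log2 fold change of -0.12 (SE 0.08, edgeR adjusted p = 0.859). From start to end, introns included, the CPNE1 gene model shares 16032 bases on the same strand with RBM12, an RNA-binding protein gene. Overlap of their exons was not examined, so the effect on the CPNE1 counts is not known. RBM12 itself was at 173 ± 9.99 CPM in tazemetostat mice and 165 ± 11 CPM in vehicle mice (SD, n = 3 each). No such partner with many counts overlaps WNK2, WNK1, CPNE5 or CPNE3. The overlapping genes with most reads were C9orf129 with 7 counts in all mice together at WNK2, AC004765.1 with 119 at WNK1, Z85996.2 with 15 at CPNE5 and CNGB3 with 37 at CPNE3.

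In edgeR's quasi-likelihood test of the mouse sums, 0 of the 5 genes passed an adjusted p of 0.05, where 7 of all 20301 tested genes did, or 0.0345%. At an unadjusted p under 0.05 there were 2 of the 5, WNK2 and CPNE5, and 6.54% of all tested genes. DESeq2 on the mouse sums called these 2 (0.656% of its tested genes were called), and so did limma-voom on all 18 libraries, in which the mouse was a random effect (1.26% called), and edgeR without a filter on low counts (0.685% called). Limma-voom on the mouse sums called 0 of the 5 (0.0246% of all genes were called). Without vehicle mouse M_766, edgeR called WNK2 alone of the 5, with a log2 fold change of -0.82 (0.126% of all genes were called). With any other single mouse left out it called 0 of the 5. Of the 5 genes, 3 were lower in tazemetostat mice without overlap between the groups, as were 6.0% of all tested genes. Nothing is read from these counts for WNK2 and CPNE5, since the contrast chose them.

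In 15 of 15 alternative settings the log2 fold changes of WNK2 and of CPNE5 stayed negative. They ran from -0.98 to -0.59 for WNK2 and from -1.01 to -0.69 for CPNE5. The smallest sizes were those without vehicle mouse M_770 for WNK2 and with the level of dissociation-stress genes as a covariate for CPNE5. Both genes were chosen by this contrast and did not overlap between the groups, so leaving out a mouse could hardly turn the sign. The lasting sign is therefore a description and no further evidence.

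Levels per length give the order of the genes. Divided by the deposited gene length in kb, CPNE1 stood at 19.5 ± 0.885 CPM per kb in tazemetostat mice and 21.3 ± 0.463 in vehicle mice (SD, n = 3 each). WNK1 followed at 11.5 ± 2.29 CPM per kb in tazemetostat mice and 11.3 ± 2.81 in vehicle mice. CPNE3 was next at 7.30 ± 0.385 CPM per kb in tazemetostat mice and 6.78 ± 0.867 in vehicle mice. WNK2 was at 3.75 ± 0.145 CPM per kb in tazemetostat mice and 6.15 ± 1.02 in vehicle mice. CPNE5 was last at 0.874 ± 0.162 CPM per kb in tazemetostat mice and 1.57 ± 0.19 in vehicle mice. In tazemetostat mice no neighbours in this order overlapped. In vehicle mice WNK2 (5.11 to 7.15 CPM per kb) and CPNE3 (5.79 to 7.42) did overlap and could not be ordered, and the other neighbours did not.

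Set against its relative within each mouse, WNK2 per kb was 0.276, 0.369 and 0.350 of WNK1 per kb in tazemetostat mice M_767, M_768 and M_774, and 0.627, 0.510 and 0.527 of it in vehicle mice M_766, M_769 and M_770. The ratio did not overlap between the groups, and WNK1 varied from mouse to mouse. CPNE5 per kb was 0.0413, 0.0390 and 0.0538 of CPNE1 per kb in the same tazemetostat mice, and 0.0712, 0.0679 and 0.0825 of it in the same vehicle mice. WNK1 thus gave more RNA per length than WNK2 in every mouse, and CPNE1 more than CPNE5. The ratios hold the values of WNK2 and CPNE5, which this contrast chose, so their difference between the groups is a description only.

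Single libraries repeated the pattern of the mice. Over 9 libraries per group, WNK2 ran from 45.8 to 55.0 CPM with a median of 49.0 in tazemetostat libraries, against 62.5 to 100.3 CPM with a median of 81.6 in vehicle libraries. CPNE5 ran from 4.40 to 7.07 CPM with a median of 5.08 in tazemetostat libraries, against 9.13 to 12.5 CPM with a median of 9.29 in vehicle libraries. Neither gene overlapped between the groups in any of the 18 libraries, which are not independent because 3 come from each mouse. Within a mouse the highest library exceeded the lowest by a factor of 1.05 to 1.15 for WNK2 and 1.0 to 1.32 for CPNE5.

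Library C of mouse M_768 stood apart, with a TMM factor of 0.901 where the other 17 libraries had 0.978 to 1.03. It held WNK1 at 88.3 CPM, against 169 and 162 CPM in libraries A and B of the same mouse. CPNE3 was also lower in it, at 40.3 CPM against 50.6 and 49.1 CPM in A and B, while CPNE5 was at 6.0 CPM against 4.53 and 4.94 CPM and CPNE1 at 81.3 CPM against 69.6 and 73.0 CPM in the other libraries of that mouse. For WNK2 it differed less, at 45.8 CPM against 50.5 and 50.4 CPM. Without this library the log2 fold changes were -0.70 for WNK2 and -0.87 for CPNE5, and 0.09 for WNK1, 0.14 for CPNE3 and -0.14 for CPNE1.

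**Figure D2:**
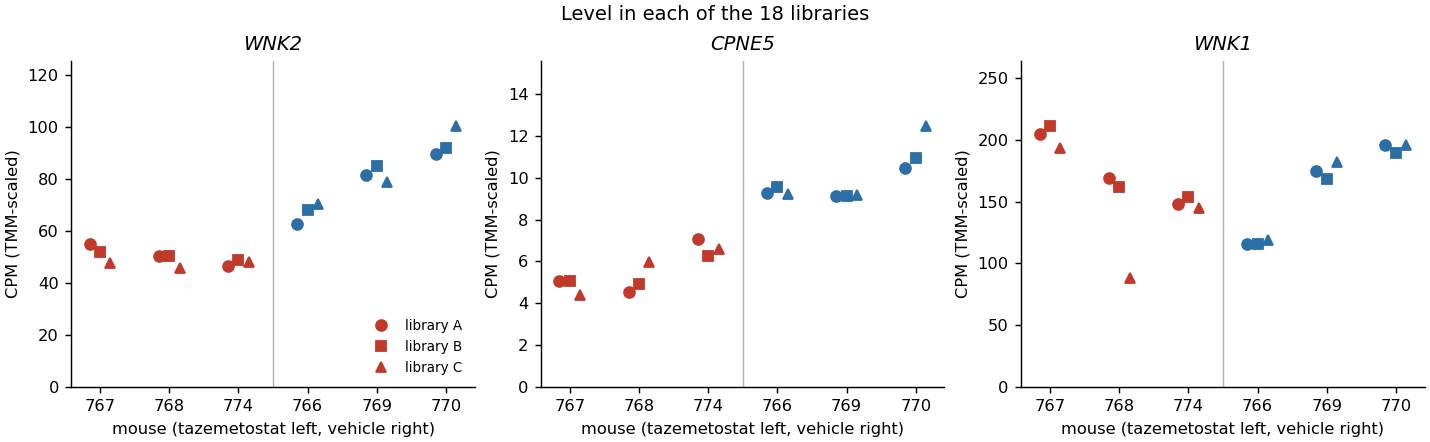
CPM of WNK2, CPNE5 and WNK1 in each of the 18 libraries (symbols for libraries A, B and C; tazemetostat mice in red on the left, vehicle mice in blue on the right). All tazemetostat libraries lie below all vehicle libraries for WNK2 and CPNE5, and library C of mouse M_768 is the low point for WNK1 at 88.3 CPM.

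WNK2 and CPNE5 went together across the 18 libraries with a Pearson r of 0.87 on log2 CPM, a value that includes the difference between the groups by which both were chosen. Within the 9 tazemetostat libraries r was -0.48 and within the 9 vehicle libraries it was 0.72, each over only 3 mice. The sign within groups was thus not shared. In tazemetostat mice, mouse M_774 had the highest CPNE5 and the lowest WNK2. In vehicle mice, mouse M_770 had the highest level of both.

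**Figure D3:**
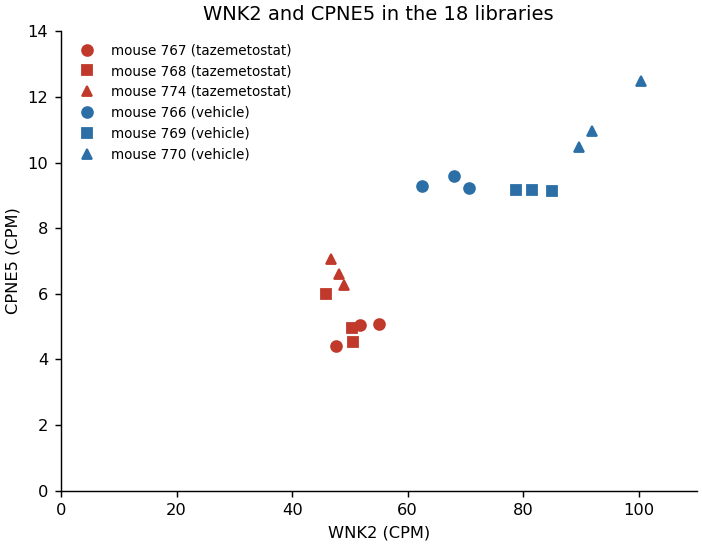
CPNE5 against WNK2 in CPM, 1 point per library, with a symbol per mouse (tazemetostat red, vehicle blue). The groups form separate clouds, and within the tazemetostat libraries (r = -0.48) the points do not run the same way as within the vehicle libraries (r = 0.72).

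WNK4, known for its part in renal salt handling, was at 4.12 ± 0.398 CPM in tazemetostat mice and 3.74 ± 0.474 CPM in vehicle mice (SD, n = 3 each), with a log2 fold change of 0.14 (SE 0.16). WNK3 was at 0.204 ± 0.0377 CPM in tazemetostat mice and 0.194 ± 0.109 CPM in vehicle mice, with 10 to 16 counts per tazemetostat mouse and 5 to 18 per vehicle mouse. Of the 4 kinases 3 had a positive log2 fold change (median 0.05, beside -0.01 over all tested genes). With edgeR 0 passed and 1, WNK2, had an unadjusted p under 0.05, beside 6.54% of all tested genes, and limma-voom on the mouse sums called 0. DESeq2 (0.656% of its tested genes were called) and the random-effect fit (1.26% called) called 1, WNK2.

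Most partners of the WNK kinases had positive log2 fold changes. Nothing is read from the opposite sign of WNK2, since the contrast chose it. Of 17 listed partners 16 were tested, 13 with a positive and 3 with a negative log2 fold change (median 0.09, beside -0.01 over all tested genes). Of these partners 0 passed with edgeR, with DESeq2, with limma-voom or with the random-effect fit. At an unadjusted p under 0.05 there was 1, SGK1, beside 6.54% of all tested genes. SGK1 is a kinase that acts on the WNK pathway and responds to stress and hormones. SGK1 was at 4.62, 6.57 and 3.44 CPM in tazemetostat mice M_767, M_768 and M_774, against 1.54, 3.11 and 4.0 CPM in vehicle mice M_766, M_769 and M_770, and the groups overlapped (log2 fold change 0.76, SE 0.33, edgeR adjusted p = 0.729). OXSR1, which encodes the kinase OSR1, was at 91.0 ± 4.45 CPM in tazemetostat mice and 82.1 ± 9.48 CPM in vehicle mice, with a log2 fold change of 0.15 (SE 0.10, edgeR adjusted p = 0.864). STK39, which encodes SPAK, was at 85.5 ± 2.16 CPM in tazemetostat mice and 93.7 ± 10.4 CPM in vehicle mice (log2 fold change -0.13, SE 0.10). CAB39, the scaffold MO25 that activates both kinases, was at 74.9 ± 1.62 CPM in tazemetostat mice and 68.2 ± 5.53 CPM in vehicle mice.

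SLC12A2, the sodium-potassium-chloride cotransporter NKCC1, brings chloride into the cell and was at 51.7 ± 4.98 CPM in tazemetostat mice and 44.6 ± 8.84 CPM in vehicle mice (SD, n = 3 each, log2 fold change 0.21, SE 0.14). KLHL3, an adaptor that brings WNK kinases to the CUL3 ubiquitin ligase, was at 8.41 ± 0.0237 CPM in tazemetostat mice and 7.53 ± 1.04 CPM in vehicle mice. Its groups did not overlap, yet the difference was small (log2 fold change 0.16, SE 0.14, edgeR adjusted p = 0.90). SLC12A7 had 0, 3 and 2 counts in tazemetostat mice M_767, M_768 and M_774 and 0, 4 and 9 in vehicle mice M_766, M_769 and M_770, and was not tested. STK39, SLC12A7 and KLHL3, and CPNE7 among the copines, were chosen after their values were seen.

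Among the 9 copines, 6 were tested, 2 with a positive and 4 with a negative log2 fold change (median -0.17). With edgeR 0 passed and 1, CPNE5, had an unadjusted p under 0.05, beside 6.54% of all tested genes, and limma-voom on the mouse sums called 0. DESeq2 (0.656% of its tested genes were called) and the random-effect fit (1.26% called) called 1, CPNE5. CPNE2 was at 235, 229 and 245 CPM in tazemetostat mice M_767, M_768 and M_774, against 314, 278 and 238 CPM in vehicle mice M_766, M_769 and M_770. Its groups overlapped because vehicle mouse M_770 lay within the tazemetostat range (edgeR adjusted p = 0.784, with a log2 fold change of -0.23 and an SE of 0.11). CPNE9 had a log2 fold change of -0.71 with an SE of 0.53, at 0.239 ± 0.0375 CPM in tazemetostat mice and 0.391 ± 0.307 CPM in vehicle mice (SD, n = 3 each). CPNE7 was also near the limit of counting, with 11 to 37 counts per tazemetostat mouse and 16 to 26 per vehicle mouse. CPNE4, CPNE6 and CPNE8 had 0 to 9 counts per tazemetostat mouse and 0 to 14 per vehicle mouse, and were not tested.

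**Figure D4:**
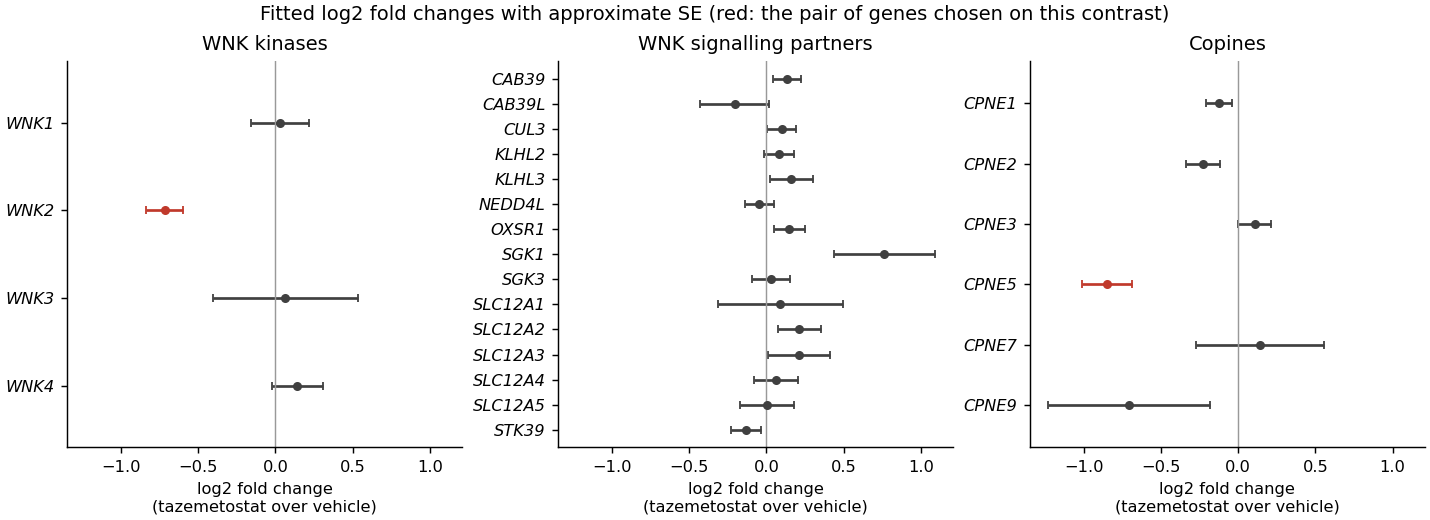
Fitted log2 fold changes, tazemetostat over vehicle, with approximate SE, for the tested WNK kinases, 15 of the 16 tested WNK signalling partners and the tested copines (n = 3 mice per group). WNK2 at -0.72 and CPNE5 at -0.85, in red, were chosen on this contrast, and CPNE9, WNK3, CPNE7, SLC12A1 and SGK1 have the widest bars among the genes drawn.

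Most genes next to WNK2 had log2 fold changes near 0. Within 250 kb of it 6 genes were tested, 3 with a negative value and a median of -0.02. With edgeR 0 passed and 1 had an unadjusted p under 0.05, beside 6.54% of all tested genes, while limma-voom on the mouse sums called 0. The nearest on either side were NINJ1, an adhesion protein that ruptures the membrane in lytic cell death, at 0.02 (SE 0.11) and FAM120AOS at 0.01 (SE 0.09) on the log2 scale. FAM120A was at 0.11 (SE 0.14). SUSD3, a membrane protein gene 99.8 kb before WNK2, was the one with an unadjusted p under 0.05. It was at 11.7, 12.9 and 9.80 CPM in tazemetostat mice M_767, M_768 and M_774, against 15.2, 16.9 and 29.4 CPM in vehicle mice M_766, M_769 and M_770. The groups did not overlap, and mouse M_770 was far above the other vehicle mice. The log2 fold change of SUSD3 was -0.84 (SE 0.22, edgeR adjusted p = 0.445). DESeq2 (0.656% of its tested genes were called) and the random-effect fit (1.26% called) called SUSD3 as the 1 gene of the 6.

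Genes around CPNE5 had log2 fold changes of either sign. Within 250 kb 10 genes were tested, 6 with a negative log2 fold change and a median of -0.05. With edgeR 0 passed and 3 had an unadjusted p under 0.05, beside 6.54% of all tested genes, and limma-voom on the mouse sums called 0. CDKN1A, the cell-cycle inhibitor p21, ends 53.4 kb from CPNE5 and was at 70.6, 69.5 and 80.8 CPM in tazemetostat mice M_767, M_768 and M_774, against 53.1, 50.1 and 31.0 CPM in vehicle mice M_766, M_769 and M_770. It was thus higher without overlap (edgeR adjusted p = 0.37, with a log2 fold change of 0.72 and an SE of 0.17). DESeq2 called CDKN1A as the 1 gene of the 10 (0.656% of its tested genes were called). FGD2, an exchange factor for CDC42 found in antigen-presenting cells, was at 47.5 ± 3.23 CPM in tazemetostat mice and 37.6 ± 3.45 CPM in vehicle mice, with a log2 fold change of 0.34 (SE 0.10, edgeR adjusted p = 0.478). PPIL1, a splicing factor gene 14.8 kb on the other side, had a log2 fold change of 0.10 (SE 0.10). The random-effect fit called CDKN1A and FGD2 (1.26% of all tested genes were called). PI16, the other gene with an unadjusted p under 0.05, had a negative log2 fold change of -1.05 (SE 0.42, edgeR adjusted p = 0.699). It was at 0.282, 0.198 and 0.407 CPM in tazemetostat mice M_767, M_768 and M_774, against 0.940, 0.513 and 0.362 CPM in vehicle mice M_766, M_769 and M_770, and the groups overlapped. PI16 was named after its values were seen.

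**Figure D5:**
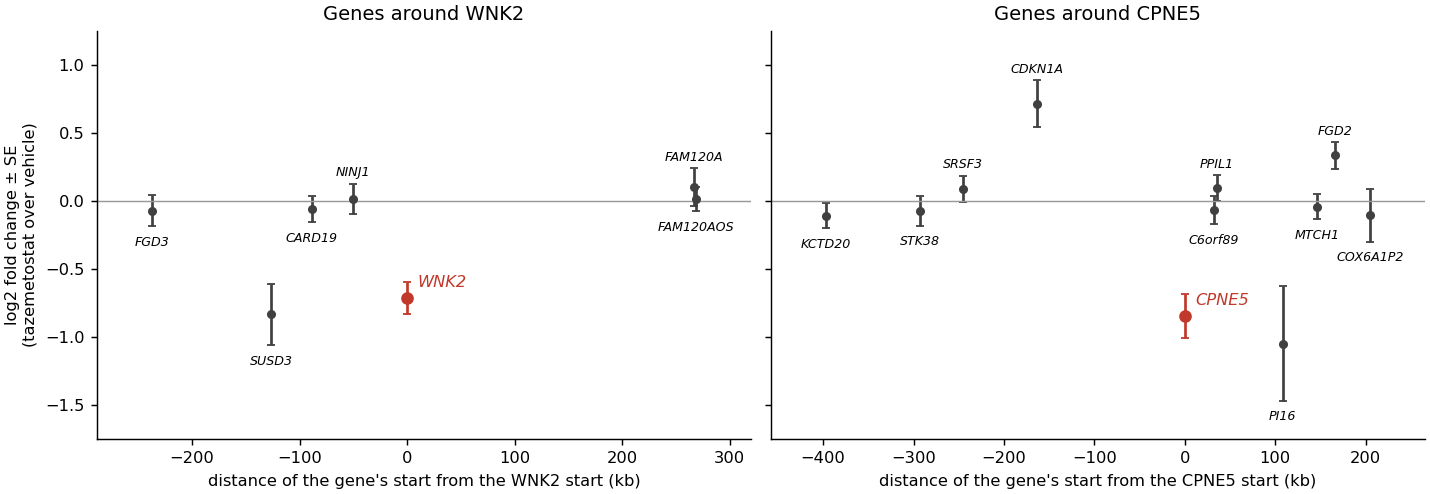
Fitted log2 fold changes with SE, tazemetostat over vehicle, of the tested genes within 250 kb of WNK2 (left) and CPNE5 (right), against the distance in kb between gene starts along the chromosome. WNK2 and CPNE5 are in red at distance 0. SUSD3 lies low beside WNK2 at -0.84, and CDKN1A lies high beside CPNE5 at 0.72.

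Some genes followed WNK2 or CPNE5 closely across the 18 libraries, among the 12738 genes whose mean log2 CPM was 1 or more. The measure was the Pearson r of log2 CPM, a description only, since libraries share mice and the group difference enters it. Most like WNK2 were SCN4A, a voltage-gated sodium channel (r = 0.93), IL4R, the interleukin-4 receptor chain (0.93), RAB11FIP4, a partner of the GTPase RAB11 (0.93), EHMT1, a histone H3 lysine methyltransferase (0.93), and TERT, the telomerase catalytic subunit (0.93). SCN4A was at 26.5, 24.6 and 24.4 CPM in tazemetostat mice M_767, M_768 and M_774, against 31.2, 42.1 and 40.7 CPM in vehicle mice M_766, M_769 and M_770. IL4R was at 61.5 ± 1.89 CPM in tazemetostat mice and 83.9 ± 8.01 CPM in vehicle mice (SD, n = 3 each). EHMT1 differed less, at 259 ± 12.5 CPM in tazemetostat mice and 309.6 ± 26.4 CPM in vehicle mice.

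Most like CPNE5 were GRAMD4, a mitochondrial membrane protein gene (r = 0.94), MEN1, which encodes menin (0.93), QARS, the glutaminyl-tRNA synthetase gene (0.92), the pseudogene transcript SNX29P2 (0.90) and GRAMD1A, a sterol transport protein gene (0.90). GRAMD4 was at 84.7, 87.4 and 92.7 CPM in tazemetostat mice M_767, M_768 and M_774, against 110.7, 110.1 and 113.5 CPM in vehicle mice M_766, M_769 and M_770. Mouse M_774 was the highest tazemetostat mouse for GRAMD4, as for CPNE5. MEN1 was at 112.5 ± 3.38 CPM in tazemetostat mice and 132 ± 6.01 CPM in vehicle mice (SD, n = 3 each). All 10 were lower in tazemetostat mice without overlap, as were 6.0% of all tested genes. With edgeR 0 passed and 8 had an unadjusted p under 0.05, as had 6.54% of all tested genes, and nothing is read from these counts because the choice used the same libraries. DESeq2 called 3 of them, IL4R, RAB11FIP4 and SCN4A (0.656% of its tested genes were called), and limma-voom on the mouse sums called 0. The random-effect fit called 8, all but QARS and GRAMD1A (1.26% of all tested genes were called). Nothing is read from these calls either, for the same reason.

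The sorted cells carried B-cell transcripts, and CD247 of the T-cell markers moved with the groups. All 9 B-cell markers were tested, and their summed level was 2984 to 2999 CPM in tazemetostat mice and 2840 to 3396 CPM in vehicle mice. With edgeR 0 of them passed and 1, BLK, had an unadjusted p under 0.05, beside 6.54% of all tested genes. BLK was lower in tazemetostat mice without overlap, with a log2 fold change of -0.31 (SE 0.09, edgeR adjusted p = 0.477). DESeq2 and limma-voom on the mouse sums called 0, and the random-effect fit called BLK (1.26% of all tested genes were called). The 10 T-cell markers summed to 59.1 to 68.4 CPM in tazemetostat mice and 43.1 to 58.2 CPM in vehicle mice, without overlap. Of these 3 had enough counts to be tested. With edgeR 0 passed and 1, CD247, had an unadjusted p under 0.05, beside 6.54% of all tested genes. CD247 was called by the random-effect fit, and DESeq2 and limma-voom on the mouse sums called 0. CD247, the CD3 zeta chain, held most of the summed T-cell marker level (49.2 ± 3.95 CPM in tazemetostat mice and 36.6 ± 5.82 CPM in vehicle mice). The other tested markers overlapped between the groups. TRAC was at 12.5 ± 0.764 CPM in tazemetostat mice and 11.8 ± 2.32 CPM in vehicle mice. CD8A was at 1.36 ± 0.106 CPM in tazemetostat mice and 1.51 ± 0.102 CPM in vehicle mice. The defining chains CD3D and CD3G had 0 counts in all 6 mice, which allows up to 0.0422 to 0.0508 CPM in tazemetostat mice and 0.0462 to 0.0543 CPM in vehicle mice. CD3E had 1 to 7 counts per tazemetostat mouse and 3 to 9 per vehicle mouse. The part of the T-cell transcripts in the WNK2 and CPNE5 values was not tested. The limits take 3 counts as the most that a count of 0 allows and cover counting error only.

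The level of dissociation-stress genes, early-response and heat-shock genes that respond to tissue digestion, also moved with the groups. Of the 24 genes 22 had a positive log2 fold change (median 0.60, beside -0.01 over all tested genes). With edgeR 0 passed and 13 had an unadjusted p under 0.05, beside 6.54% of all tested genes. DESeq2 called 4 (0.656% of its tested genes were called) and the random-effect fit 11 (1.26% called), while limma-voom on the mouse sums called 0. Their summed level was 1959 to 2602 CPM in tazemetostat mice and 1341 to 1752 CPM in vehicle mice. Their mean log2 CPM was 4.69 to 5.14 in tazemetostat mice and 3.93 to 4.59 in vehicle mice, without overlap. The stress level and the treatment therefore cannot be told apart in these mice. With this mean as a covariate the log2 fold change was -0.98 for WNK2, -0.69 for CPNE5 and -0.16 for CPNE1. It was -0.46 for WNK1 and -0.11 for CPNE3, so the sign of these 2 turned.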

How the data were processed

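The authors deposited 1 table of whole-number read counts per Ensembl gene in 18 libraries, without normalization. The submitters' processing notes name hg38 and, with neither role nor version, DESeq2. Which aligner, counter, annotation and strand setting were used was not given in the sources used. All 58735 genes had the same position in GENCODE 29. Gene lengths were deposited beside the counts.

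Depth was 16124494 to 26336269 counts per library and 55712115 to 69816184 per mouse. The mouse received the treatment, so its 3 libraries were summed. The test was edgeR's quasi-likelihood F test (edgeR 4.0.16, R 4.3.3) on mouse sums, after filterByExpr (minimum count 10) and TMM scaling. P-values were adjusted over 20301 genes by Benjamini and Hochberg, with a threshold of 0.05. Log2 CPM used a prior count of 2. Alternatives used other scaling, no filter, DESeq2 1.42.0, limma 3.58.1 (voom), all 18 libraries fitted with a random mouse effect, a stress covariate, and the data without library M_768_C or without each mouse. The fit was tested on simulated counts.

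Named beside the 5 genes were up to 4 members per list with the smallest p, the 5 genes most like WNK2 and like CPNE5, and the nearest genes and up to 2 with the smallest p within 250 kb. Members, lists and alternatives were chosen with earlier results of these data known. P-values measure the spread between these mice only. Values of single genes in the marker and partner lists that are not named are not reported here.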

Additional observations from a re-analysis of the deposited data

Results flagged for a closer look

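CPNE3 was at 40.3 CPM in library C of tazemetostat mouse M_768, far below the other 8 libraries of that group, which ran up to 53.0 CPM. The gap to the nearest library was 0.566 of the group's whole range, above Dixon's critical value of 0.493 for 9 libraries. For each of the 5 genes 2 groups of libraries were examined, and chance flags about 1 in 20 groups. The library also had the lowest TMM factor of the 18, at 0.901, and the part of this in the CPNE3 value was not tested. Libraries of 1 mouse are not independent. With the 3 libraries summed, mouse M_768 had CPNE3 at 47.1 CPM.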

How the results depend on the processing

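The count of genes called, 7 with edgeR on the mouse sums, was 252 without a filter on low counts, 119 with DESeq2 and 256 with the 18 libraries and the mouse as a random effect. With each mouse left out it ran from 0 to 59. It was 5 to 7 with other scaling factors, with limma-voom, with the stress covariate and without library M_768_C. DESeq2, the fit without a filter and the random-effect fit called WNK2 and CPNE5, so whether these genes pass depends on the model, and the cause was not tested. The log2 fold change of WNK2 was -0.98 with the stress covariate, a shift larger than the spread between mice, and differed less than that spread in the other 14 settings. That of CPNE5 differed less than the spread in all 15. WNK1 had a log2 fold change of -0.46 with the stress covariate, and -0.15 to 0.19 with each mouse left out. CPNE3 had one of -0.11 with the stress covariate and a positive one in the other 14 settings. CPNE1 was negative in all 15 and passed in none. No paired analysis was possible because the mice of both groups carry different numbers and the library letters lie within a mouse. Depth limits WNK3, CPNE7 and CPNE9, which had few counts, and 3 mice per group limit all calls.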
